A study of Mus musculus with 48 samples.

Results

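Oxidative phosphorylation was examined in sorted nociceptors through the 86 nuclear genes in the count tables whose symbols name a subunit of complexes I to V. Of 47643 gene identifiers, these were all genes matching the families Nduf, Sdh, Uqcr, Cyc1, Cox4 to Cox8 and Atp5, with 10 pseudogenes left out. Complex I had 38 members, complex II 4, complex III 9, complex IV 18 and complex V 17. The cells were neurons of the lumbar 4 dorsal root ganglion from mice of mixed C57BL/6 and AJ background aged 8 to 9 weeks. All mice carried Cre driven by Nav1.8, a sodium channel gene of nociceptors, and a Rosa26-ZsGreen reporter, by which cells were sorted. Controls were Tsc2 flox/+, so their neurons also lost a Tsc2 copy, and the Tsc2 cKO mice were Tsc2 flox/null. A null allele does not depend on Cre, so cells other than these neurons also differed by a Tsc2 copy between the genotypes. Ganglia of the crush groups lay on the side of a sciatic nerve crush made 3 days earlier, and ganglia of the uninjured groups came from the contralateral side, so the injury was not absent from those mice. Each of the 4 groups held 4 samples, 2 from males (replicates 1 and 2) and 2 from females (replicates 3 and 4). Each sample was the sum of 3 technical aliquots of about 100 cells.

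Complexes I and II feed electrons from NADH and succinate into the inner mitochondrial membrane, complex III passes them through cytochrome c to complex IV, and complex IV reduces oxygen. Complexes I, III and IV pump protons, and complex V, the ATP synthase, makes ATP as they flow back. A few subunits are encoded by mitochondrial DNA and the rest, described here, by the nucleus. Sensory neurons have long axons with a high demand for ATP. Tsc2 encodes tuberin, a brake on the kinase complex mTORC1, which is known to raise the synthesis of mitochondrial proteins.

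Summed libraries held 36773198 to 63365268 counts. Levels are given as CPM, counts scaled by each sample's library size. Tsc2 was at 21.0 ± 5.14 CPM (SD, n = 4) in uninjured control and 23.2 ± 3.76 in crush control samples. It was at 8.86 ± 1.51 in uninjured and 8.30 ± 2.42 in crush Tsc2 cKO samples, so all 8 cKO samples lay below all 8 controls. Markers of nociceptors were abundant in every group, with a summed level of 10520 to 19660 CPM over 10 genes in uninjured control samples and 5002 to 6822 in crush Tsc2 cKO samples. Markers of ensheathing cells were also present, at 677 to 1486 CPM over 9 satellite glia genes and 1324 to 1898 over 6 Schwann cell genes. In such bulk samples, fewer cells of a type and less RNA per cell cannot be told apart. The labels give 4 animals a group and do not say whether both sides of a mouse were used.

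Per length of messenger RNA, the most abundant member of complex I was Ndufa4, a protein named for complex I but found in complex IV, at 1702 CPM per kb over all samples. Ndufa11, an accessory subunit of the membrane arm, followed at 667. In complex II, Sdhb, the iron-sulphur subunit, was at 574 CPM per kb, followed by Sdhd, a membrane anchor. Uqcr10 and Uqcrq, small subunits of complex III, stood at 817 and 478 CPM per kb. In complex IV, Cox4i1, the common form of subunit 4, was at 1057 CPM per kb and Cox6b1, which links the monomers of its dimer, at 771. In complex V, Atp5k, a membrane subunit, was at 624 CPM per kb and Atp5o, of the peripheral stalk, at 598, although 50.3% of its windows are shared with other genes. The redox subunits of complex III were the least abundant members of that complex, with Cyc1, cytochrome c1, at 39.8 CPM per kb and Uqcrfs1, the Rieske iron-sulphur protein, at 39.3. Reads that align to several places were not counted, so 28 members with at least 10% of their 50-base windows, the stretches a read can cover, present in another gene have uncertain levels. Atp5g2, at 0.403 CPM per kb with 87.4% of windows shared, and Atp5l, at 3.85 with 84.8%, were the extremes.

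The summed level of complex I was 9404 ± 90.7 CPM (SD, n = 4) in uninjured control samples, 9256 ± 452 in uninjured Tsc2 cKO, 7205 ± 546 in crush control and 8353 ± 1402 in crush Tsc2 cKO samples. Every crush control sample lay below every uninjured control sample, and the sums of uninjured cKO and control samples overlapped. Complex IV stood at 2611 ± 77.3, 3137 ± 73.2, 2252 ± 64.0 and 3056 ± 558 CPM in the same order. Its uninjured cKO samples all lay above the uninjured controls, at 3036 to 3209 against 2557 to 2722 CPM. Complex III was at 1995 ± 59.8, 2353 ± 85.3, 1718 ± 102 and 2168 ± 299 CPM, and complex V at 4910 ± 151, 5917 ± 151, 4249 ± 141 and 5453 ± 484. Complex II was at 1563 ± 90.7, 1681 ± 46.3, 1316 ± 87.6 and 1524 ± 147 CPM. Without Sdhb, complex II was at 960 ± 66.5, 948 ± 30.1, 731 ± 50.2 and 824 ± 79.0 CPM, so the uninjured cKO mean was then no higher than the control mean.

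The ratio of summed complex IV to summed complex I was 0.278 ± 0.00768 (SD, n = 4) in uninjured control samples and 0.339 ± 0.0109 in uninjured Tsc2 cKO samples, with ranges of 0.270 to 0.288 and 0.327 to 0.353. It was 0.314 ± 0.0159 in crush control and 0.365 ± 0.0109 in crush Tsc2 cKO samples, so the 4 uninjured controls were the lowest of all 16 samples. The ratio of complex V to complex I was 0.522 ± 0.0186, 0.641 ± 0.0384, 0.591 ± 0.0297 and 0.659 ± 0.0516 in the same order. For complex III it was 0.212 ± 0.00677, 0.254 ± 0.00684, 0.239 ± 0.0139 and 0.261 ± 0.0103. Over all members, the sum was 20483 ± 290 CPM in uninjured control, 22343 ± 623 in uninjured Tsc2 cKO, 16740 ± 895 in crush control and 20554 ± 2837 in crush Tsc2 cKO samples. In crush Tsc2 cKO samples it was 17569 and 19481 CPM in males and 24294 and 20871 in females. Females also lay above males in each uninjured group. In crush controls the sexes overlapped, at 15603 and 17734 against 17047 and 16576 CPM. The part of sex was not tested. The sums and ratios are given as descriptions, with no test. Ndufa4 was counted in complex I by its name, although the protein is found in complex IV. It was at 1059 ± 34.76, 900.3 ± 81.95, 811.3 ± 88.17 and 845.1 ± 224.5 CPM in the same order of groups. Sums with Ndufa4 in complex IV were not computed. The rise of complex IV, and of its ratio to complex I, in uninjured cKO samples would then be smaller.

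**Figure D1:**
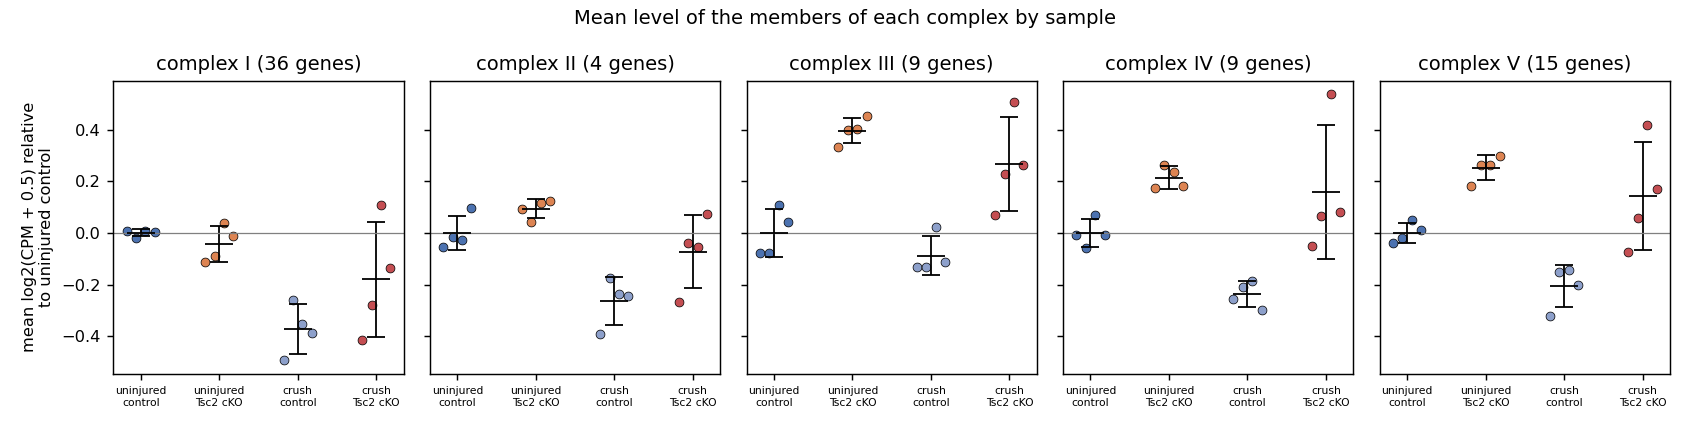
Mean log2(CPM + 0.5) of the members of each complex with a mean of at least 10 CPM, relative to the uninjured control mean, for each of 16 samples (points), with the group mean and SD (bars). Complex I was at -0.04 in uninjured Tsc2 cKO samples, where complex III was at 0.40, and crush Tsc2 cKO replicate 3 was the highest of its group for complexes I, III, IV and V.

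Crush in control neurons was followed by lower levels of subunit genes, most of them in complex I. Changes are log2 fold changes with standard errors from edgeR's quasi-likelihood test on summed counts, called at an adjusted p under 0.05 (Benjamini-Hochberg over 19048 genes). Of the 83 members tested, 30 fell (36.1%) against 8.68% of all genes, and 3 rose (3.61%) against 11.0%. Among genes with a mean of at least 100 CPM, 22.4% fell, against 26 of 60 members (43.3%) at that level. In complex I, 19 of 37 tested members fell and none rose at an adjusted p under 0.05 (none rose at an unadjusted p under 0.05 either), with a median log2 change of -0.37, where the median of all genes was -0.03. Of complex II, 2 of 4 fell. In complex III 2 fell and 2 rose among 9, in complex IV 2 fell and 1 rose among 16, and in complex V 5 of 17 fell. The shares that fell in complexes III and IV, 22.2% and 12.5%, were not above that of genes with at least 100 CPM. The summed nociceptor markers were also lower after crush in controls, at 7603 to 9909 CPM against 10520 to 19660, and their part in these falls was not tested. The count of calls was 19 without crush control replicate 1 and 18 without crush control replicate 4, in place of 33.

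Ndufb3, an accessory subunit of the membrane arm of complex I, stood at 139, 125, 139 and 123 CPM in uninjured control samples and at 75.5, 95.8, 73.0 and 77.3 CPM in crush control samples. The groups did not overlap, and the change was -0.71 ± 0.12 (adjusted p = 0.000753, edgeR). Ndufv2, an iron-sulphur subunit of the NADH-oxidising module, was at 446, 463, 414 and 445 CPM before and 259, 321, 271 and 295 CPM after crush. It fell by 0.63 ± 0.12 (adjusted p = 0.00124, edgeR), again with no overlap. The falls ran through all parts of the complex, with 6 of 10 members of the NADH-oxidising module, 3 of 6 of the quinone-reducing module and 10 of 20 of the membrane arm.

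Catalytic subunits of complex I were among those that fell. Besides Ndufv2 they included Ndufv1, the flavin-bearing subunit that takes up NADH, at -0.37 ± 0.08, and Ndufs1, the largest iron-sulphur subunit, at -0.39 ± 0.11. Ndufs3, Ndufs7 and Ndufs8, which line the path to ubiquinone, also fell, with Ndufs3 at -0.62 ± 0.12, Ndufs7 at -0.27 ± 0.09 and Ndufs8 at -0.40 ± 0.11. The Ndufs7 call was lost in 17 of 23 alternatives, with adjusted p up to 0.142, among them all leave-one-out settings but those without crush control replicate 2 and crush Tsc2 cKO replicate 1. The Ndufs1 and Ndufs8 calls were lost in 5 and 3. Ndufs3 shares 39.7% of its windows with other genes, so its level is uncertain. Among accessory subunits, Ndufb10 fell by 0.54 ± 0.10, Ndufb8 by 0.47 ± 0.10, Ndufa11 by 0.53 ± 0.13 and Ndufv3 by 0.52 ± 0.13.

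Succinate dehydrogenase was split by subunit. Sdha, the flavoprotein that oxidises succinate, was at 392, 463, 380 and 524 CPM in uninjured and 283, 344, 288 and 279 CPM in crush controls, with no overlap, and fell by 0.56 ± 0.14 (adjusted p = 0.00818, edgeR). Sdhd fell by 0.43 ± 0.10 (adjusted p = 0.00631). Sdhb, at -0.04 ± 0.09, and Sdhc, the other anchor, at -0.02 ± 0.10, did not pass the threshold.

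Complex III moved both ways. Cyc1 was at 31.7, 28.3, 45.2 and 34.1 CPM in uninjured and 58.6, 33.5, 62.7 and 57.4 CPM in crush controls, so the groups overlapped through crush control replicate 2, and it rose by 0.61 ± 0.18 (adjusted p = 0.0236, edgeR). Uqcrfs1 rose by 0.50 ± 0.17 (adjusted p = 0.0416), from 34.1 ± 9.23 to 48.3 ± 7.61 CPM. Over 23 alternatives the adjusted p of Cyc1 ranged from 0.00114 to 0.0691 and that of Uqcrfs1 from 0.00789 to 0.117, and the calls were lost in 6 and 11 of them. Both were lost without uninjured control replicate 1 or 2 or crush control replicate 1, 3 or 4. Cyc1 was also lost without uninjured control replicate 4, and Uqcrfs1 without replicate 1 or 2 of either cKO group, with the satellite glia covariate and with no filter on low counts. Uqcrc2, a core protein of the matrix side, fell by 0.37 ± 0.12, and Uqcr11, a small subunit, by 0.37 ± 0.12. In complex IV, Cox7a2 fell by 0.45 ± 0.11 and Cox7b by 0.40 ± 0.13, both small subunits, while Cox4i1 was at -0.15 ± 0.08 (adjusted p = 0.245). In complex V, Atp5s, a regulatory factor rather than a subunit, fell by 0.73 ± 0.19, Atp5c1, the central shaft, by 0.37 ± 0.09 and Atp5mpl, a small membrane protein, by 0.49 ± 0.15. Atp5j and Atp5o, parts of the peripheral stalk, fell by 0.40 ± 0.13 and 0.39 ± 0.12. Of these falls, the calls of Atp5j, Cox7b, Atp5o, Uqcr11, Uqcrc2 and Atp5mpl were lost in 15, 14, 12, 10, 9 and 6 of the 23 alternatives, and those of Cox7a2, Atp5s and Atp5c1 in none.

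**Figure D2:**
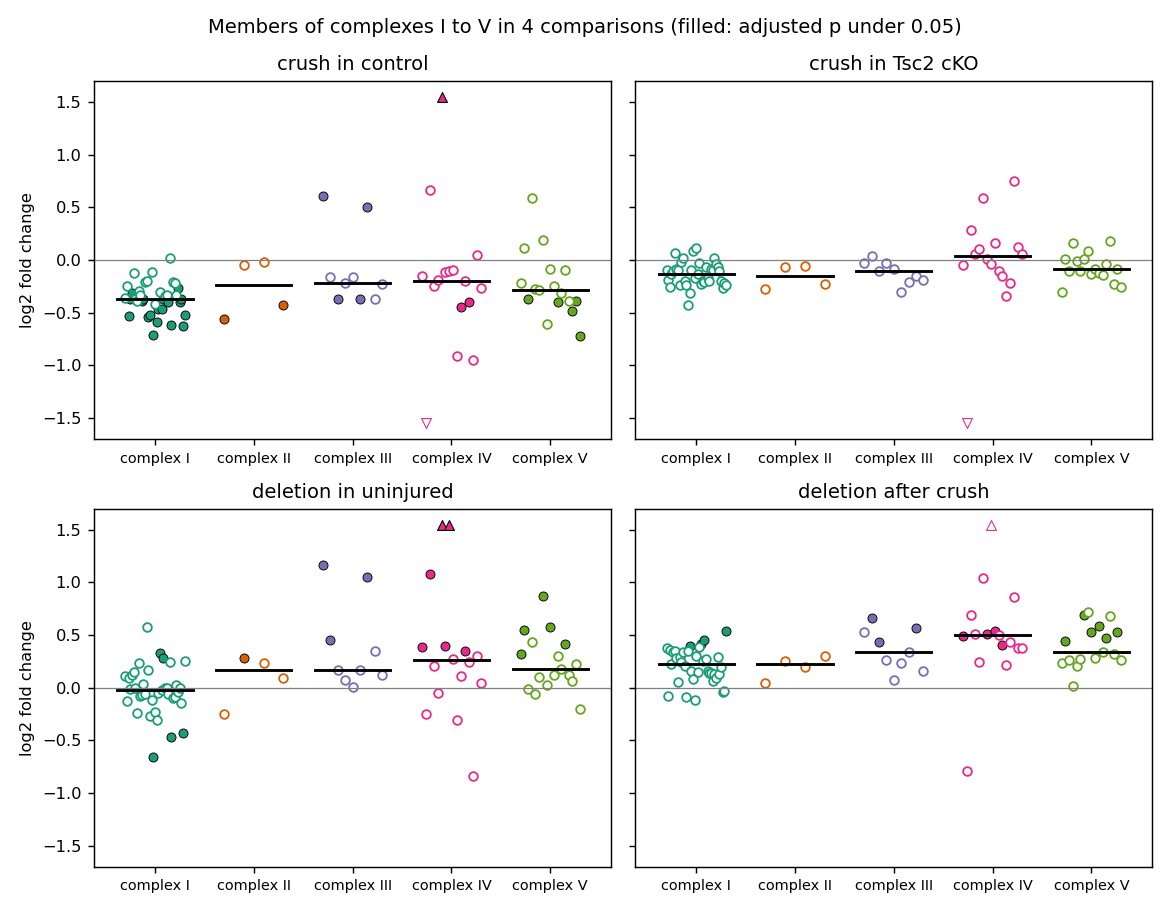
Log2 fold change of each tested member (points) by complex in 4 comparisons, filled where the adjusted p was under 0.05, with the median as a bar; triangles mark values beyond the axis. For crush in control, 19 of 37 complex I points are filled and below 0, and for deletion in uninjured neurons the complex I median was -0.02 while that of complex IV was 0.26.

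Promoters of members that fell after crush are shown for the motifs they hold or lack. RefSeq promoter windows (GRCm38.p6, from 250 bases before to 50 after the gene start) matched 67 of 86 members. They were searched on both strands for NRF1 (GCGCATGCG), ETS family (ACCGGAAG), YY1 (AAGATGGCG) and ERR family (TCAAGGTCA) motifs, and for the CREB and ATF motif (TGACGTCA), which was added after values were seen. The NRF1 motif was in 8 member windows (11.9%) and in 1.81% of 27025 promoter windows, the ETS motif in 6 (8.96%) and 2.34%, and the YY1 motif in 6 (8.96%) and 1.49%. The ERR motif was in 2 (2.99%) and 0.407%, and the CREB and ATF motif in 4 (5.97%) and 1.88%. Of the 25 windows of members that fell, 3 held the NRF1 motif, 4 the ETS motif and 1 each the YY1, ERR and CREB and ATF motifs. Each sequence below runs 5′ to 3′ over 150 bases before and 30 after the gene start, with motifs in capitals. Ndufa11 holds NRF1, read on both strands and overlapping itself, Sdhd holds ETS, and in Ndufb3 these letters are not in the window searched. Ndufa11 also holds the CREB and ATF motif, and Sdhd the ERR motif, outside the stretch shown.
Ndufb3 promoter, chr1:58586247-58586426, plus strand: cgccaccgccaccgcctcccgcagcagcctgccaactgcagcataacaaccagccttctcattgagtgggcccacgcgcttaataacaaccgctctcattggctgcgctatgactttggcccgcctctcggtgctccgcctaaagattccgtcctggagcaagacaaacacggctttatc
Ndufa11 promoter, chr17:56717612-56717791, plus strand: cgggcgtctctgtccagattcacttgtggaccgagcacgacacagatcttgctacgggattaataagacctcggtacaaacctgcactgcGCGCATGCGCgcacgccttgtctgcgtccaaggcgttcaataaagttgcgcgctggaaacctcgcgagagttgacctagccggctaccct
Sdhd promoter, chr9:50603820-50603999, minus strand: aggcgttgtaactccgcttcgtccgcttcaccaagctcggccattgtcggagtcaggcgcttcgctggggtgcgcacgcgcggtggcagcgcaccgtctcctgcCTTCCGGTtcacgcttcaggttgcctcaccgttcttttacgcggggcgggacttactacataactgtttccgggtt

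Crush in Tsc2 cKO neurons gave no called member. None of 83 passed the threshold by edgeR's quasi-likelihood test, where 5.43% of all genes did, and 10 fell and none rose at an unadjusted p under 0.05. DESeq2 called 3 (Atp5a1, Cox4i2 and Ndufv1, all lower), limma-voom 2 and limma on aliquot means 1. Same-numbered cKO sides deviated together, although the labels do not say that a number marks 1 mouse. With the number as a block 1 member was called, Atp5a1, the catalytic-head alpha subunit, at -0.31 ± 0.07 (adjusted p = 0.0407, edgeR). Without crush Tsc2 cKO replicate 3, 5 members were called lower, namely Ndufb10, Ndufb8, Ndufb9, Ndufv2 and Uqcrh, and without crush Tsc2 cKO replicate 2 it was 1, Atp5a1. The median change of complex I members was -0.13, that of complex II -0.15, of complex III -0.10, of complex IV 0.03 and of complex V -0.09. Ndufv1 was at 386 ± 15.1 CPM in uninjured and 322 ± 18.1 CPM in crush cKO samples (-0.26 ± 0.08, adjusted p = 0.0724, edgeR). Ndufb3 was at 83.3 ± 10.4 and 74.3 ± 10.9 CPM (-0.17 ± 0.12, adjusted p = 0.576). A difference between the crush effects of both genotypes was tested as an interaction, which called 1 member of 83, Cox6a2, where 1.76% of all genes were called. With the replicate block the interaction called none (none also by limma-voom or limma on aliquot means), and the Cox6a2 call was lost in 13 of 23 alternatives in all. No complex I member passed by edgeR (34 of 37 interaction values were above 0, 8 of them at an unadjusted p under 0.05, and DESeq2 called Ndufs3), so the falls in control neurons were not shown to differ from those in cKO neurons.

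Deletion of Tsc2 in uninjured neurons was followed by higher levels of members of complexes III, IV and V and by mixed changes in complex I. Of 83 members, 17 rose (20.5%) against 11.7% of all genes, and 3 fell (3.61%) against 9.02%. At a mean of at least 100 CPM, 11 of 60 members rose (18.3%) against 19.1% of genes, so the share of members that rose was near that of genes of like abundance. In complex IV 6 of 16 tested members rose, in complex V 5 of 17, in complex III 3 of 9, in complex II 1 of 4 and in complex I 2 of 37. The 3 that fell were all in complex I. The median change was -0.02 in complex I, 0.17 in complexes II and III, 0.26 in complex IV and 0.18 in complex V, with 0.01 over all genes. Crush in control and deletion in uninjured neurons share the uninjured control samples, so their values are not independent. The count of calls was 12 without uninjured control replicate 1 or 2 or uninjured Tsc2 cKO replicate 4 and 13 without uninjured Tsc2 cKO replicate 3, in place of 20. Nociceptor marker genes summed to 6085 to 9163 CPM in uninjured cKO samples, below the uninjured controls, while satellite glia markers summed to 706 to 907 against 677 to 1002 CPM. Of the 10 nociceptor markers, 3 were called lower and 1 higher, with a median log2 change of -0.2. With the glia markers as a covariate 19 members were called, and the part of the nociceptor markers was not tested.

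In complex III the rises included both redox subunits encoded in the nucleus. Cyc1 was at 31.7, 28.3, 45.2 and 34.1 CPM in uninjured control and 78.8, 84.4, 67.2 and 81.7 CPM in uninjured Tsc2 cKO samples, a 2.24-fold difference with no overlap (1.17 ± 0.18, adjusted p = 0.00023, edgeR). Uqcrfs1 was at 27.9, 24.9, 44.3 and 39.3 against 68.9, 69.3, 62.1 and 81.9 CPM, also with no overlap (1.05 ± 0.17, adjusted p = 0.000312). Uqcr10 rose by 0.46 ± 0.13. The matrix-side core proteins of the complex did not pass, Uqcrc2 standing at 0.17 ± 0.12.

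In complex IV, Cox4i1 was at 696, 718, 716 and 720 CPM in control and 899, 947, 925 and 957 CPM in cKO samples, with no overlap (0.39 ± 0.08, adjusted p = 0.0034, edgeR). Cox5a, a subunit on the matrix side, rose by 1.08 ± 0.23, from 5.08 ± 1.92 to 10.7 ± 0.647 CPM, although 32.0% of its windows are shared and its level is uncertain. Cox6b1 rose by 0.39 ± 0.12, and Cox7a2l, a factor that joins complexes III and IV, by 0.35 ± 0.11. These calls were lost in 4 and 6 of 23 alternatives, and 19.8% of the Cox7a2l windows are shared, so its level is uncertain. Cox5b (0.21 ± 0.18), Cox6a1 (-0.05 ± 0.15) and Cox8a (0.05 ± 0.17) did not pass.

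In complex V, subunits of the catalytic head and the rotor ring rose, as did Atp5k (0.41 ± 0.14, a call lost in 10 of 23 alternatives). Atp5b, the beta subunit that makes ATP, was at 576, 667, 659 and 672 CPM in control and 934, 1166, 793 and 867 CPM in cKO samples, with no overlap (0.55 ± 0.11, adjusted p = 0.00281, edgeR). Atp5a1 rose by 0.32 ± 0.10 (adjusted p = 0.0269). Of the genes for the ring protein c, Atp5g3 rose from 281 ± 26.5 to 418 ± 20.0 CPM (0.57 ± 0.10, adjusted p = 0.000492) and Atp5g1 from 20.3 ± 2.51 to 37.1 ± 2.80 CPM (0.87 ± 0.17, adjusted p = 0.00142). Atp5g2 was at 0.252 ± 0.110 and 0.256 ± 0.0986 CPM. Atp5c1, the shaft, was at 507 ± 26.0 and 504 ± 14.7 CPM (-0.01 ± 0.09).

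In complex I, Ndufb3 fell from 132 ± 8.91 to 83.3 ± 10.4 CPM (-0.66 ± 0.12, adjusted p = 0.00125, edgeR), Ndufs3 by 0.47 ± 0.12 and Ndufv2 by 0.43 ± 0.12. Ndufb7 and Ndufb9, membrane-arm accessory subunits, rose by 0.33 ± 0.11 and 0.29 ± 0.09, calls that were lost in 11 and 7 of 23 alternatives. The catalytic subunits Ndufs1, at -0.06 ± 0.11, Ndufs8, at 0.00 ± 0.11, and Ndufv1, at -0.14 ± 0.08, did not pass. In complex II, Sdhb rose by 0.28 ± 0.09 (adjusted p = 0.0376, lost in 10 of 23 alternatives), while Sdha was at -0.25 ± 0.14, Sdhc at 0.24 ± 0.10 and Sdhd at 0.10 ± 0.10.

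**Figure D3:**
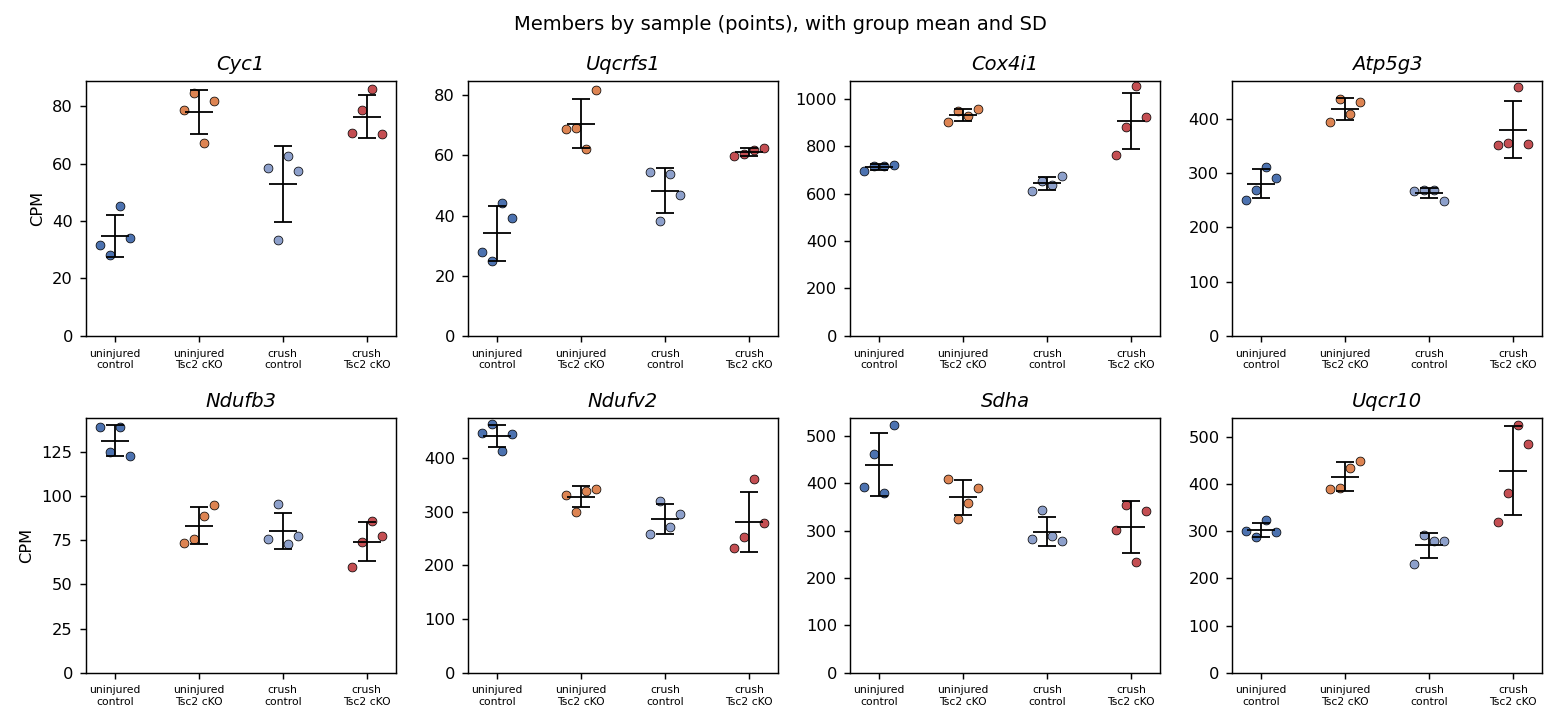
CPM of 8 members in each of 16 samples (points), with the group mean and SD (bars), all axes starting at 0. Cyc1 and Uqcrfs1 have their lowest group mean in uninjured control samples, while Ndufb3 and Ndufv2 have their highest there, at 132 ± 8.91 and 442 ± 20.6 CPM.

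Promoters of members that rose with deletion are shown for the motifs they hold. Of the 12 matched windows of such members, 1 each held the NRF1, ETS, ERR and CREB and ATF motifs and none the YY1 motif. Uqcrfs1 holds the CREB and ATF motif 29 bases before the gene start, Atp5g3 the ERR motif on the other strand and Atp5k the NRF1 motif on both strands, overlapping itself. A match is a description of letters and not a bound site.
Uqcrfs1 promoter, chr13:30545287-30545466, minus strand: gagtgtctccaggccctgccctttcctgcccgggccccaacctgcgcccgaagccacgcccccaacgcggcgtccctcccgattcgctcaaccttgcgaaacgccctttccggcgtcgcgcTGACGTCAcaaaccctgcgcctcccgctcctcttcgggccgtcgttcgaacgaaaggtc
Atp5g3 promoter, chr2:73911297-73911476, minus strand: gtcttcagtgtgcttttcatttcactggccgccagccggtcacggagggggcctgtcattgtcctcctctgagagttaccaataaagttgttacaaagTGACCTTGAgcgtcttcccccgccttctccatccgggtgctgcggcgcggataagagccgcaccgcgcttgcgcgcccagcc
Atp5k promoter, chr5:108434370-108434549, minus strand: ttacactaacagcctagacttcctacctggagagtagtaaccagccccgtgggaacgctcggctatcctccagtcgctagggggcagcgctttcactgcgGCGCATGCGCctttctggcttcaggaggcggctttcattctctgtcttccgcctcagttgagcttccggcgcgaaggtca

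After crush, deletion of Tsc2 was accompanied by higher levels of members, with larger shares in complexes III, IV and V than in complex I. Of 83 members, 17 rose (20.5%) against 3.38% of all genes, and none fell (none at an unadjusted p under 0.05, and none by DESeq2, limma-voom or limma on aliquot means) against 3.21%. At a mean of at least 100 CPM, 16 of 60 members rose (26.7%) against 8.48% of genes. By complex, 4 of 37 rose in complex I, 3 of 9 in III, 4 of 16 in IV, 6 of 17 in V and none of 4 in II (2 of 4 at an unadjusted p under 0.05). The share in complex I, 10.8%, was near that of genes with at least 100 CPM. Median changes were 0.23, 0.34, 0.50, 0.34 and 0.23 in complexes I, III, IV, V and II, and 0.00 over all genes. Satellite glia markers summed to 930 to 1486 CPM in crush cKO against 725 to 1194 CPM in crush control samples. Nociceptor markers summed to 5002 to 6822 CPM in crush cKO and 7603 to 9909 in crush control samples, with no overlap, and their part in the rises was not tested. Of the 10 nociceptor markers, 1 was called lower and none higher, with a median log2 change of -0.12. With the mean level of the glia markers as a covariate, 1 member was called, Cox4i1 (0.45 ± 0.11, adjusted p = 0.048), where 2.03% of all genes were. The median change over members was then 0.23 in place of 0.29, and the median standard error 0.17 in place of 0.13.

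Cox4i1 was at 611, 651, 636 and 676 CPM in crush control and 764, 881, 1052 and 921 CPM in crush cKO samples, with no overlap (0.49 ± 0.08, adjusted p = 0.002, edgeR). Atp5g3 was at 268, 269, 269 and 250 against 352, 356, 460 and 355 CPM (0.53 ± 0.10, adjusted p = 0.00343), and Uqcr10 at 231, 292, 280 and 280 against 320, 382, 527 and 487 CPM (0.67 ± 0.13, adjusted p = 0.00562). In these genes every cKO sample lay above every control sample, and replicate 3 was the highest. Uqcrh, the hinge protein of complex III, rose by 0.57 ± 0.13, and Uqcr11 by 0.43 ± 0.12. Cox6b1 rose by 0.51 ± 0.12, Cox6c by 0.54 ± 0.14 and Cox7a2 by 0.41 ± 0.11. In complex V, Atp5j rose by 0.59 ± 0.13, Atp5o by 0.53 ± 0.12, Atp5b by 0.45 ± 0.11, Atp5g1 by 0.69 ± 0.17 and Atp5k by 0.47 ± 0.14. In complex I, Ndufb9 rose by 0.45 ± 0.09, Ndufv3 by 0.54 ± 0.13, Ndufb7 by 0.41 ± 0.11 and Ndufb10 by 0.39 ± 0.10. The calls of Atp5k, Cox7a2, Ndufb7, Uqcr11, Ndufb10 and Cox6c were lost in 18, 14, 9, 9, 8 and 6 of 23 alternatives. Cyc1 and Uqcrfs1 were at 0.53 ± 0.18 and 0.34 ± 0.16 (adjusted p = 0.0911 and 0.257, edgeR). The count was 8 without crush control replicate 1, 8 without crush cKO replicate 4, 9 without crush control replicate 4, 9 without crush cKO replicate 3 and 28 without crush cKO replicate 1, all of them rises.

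Isoforms that other tissues use in place of the common forms were sparse. Cox6a2, the form of subunit 6A known from heart and skeletal muscle, was at 0.0172, 0, 0.0181 and 0 CPM in uninjured control samples. It was at 0.412, 0.514, 1.35 and 1.44 CPM in uninjured Tsc2 cKO, 0.357, 0.378, 0.867 and 1.11 in crush control, and 0.916, 0.971, 0.346 and 3.39 CPM in crush cKO samples. All 12 samples of the other 3 groups lay above all uninjured controls. Counts were present in 2 of 12 uninjured control aliquots, with 2 counts in all, and in 11, 10 and 10 of 12 aliquots of the other groups in that order. The pooled level was 104 times that of uninjured controls in uninjured cKO samples (95% exact interval 28.4 to 863), 70.6 times in crush controls (19.2 to 589) and 140 times in crush cKO samples (38.4 to 1160). These intervals cover counting error only, and amplified copies are not independent molecules. Cox6a2 was called by edgeR for crush in control (adjusted p = 0.000631), deletion in uninjured neurons (adjusted p = 0.000343) and the interaction (adjusted p = 0.0355), and its fitted fold depends on the prior count.

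Cox6a1, the common form, was at 269 ± 8.27, 260 ± 35.3, 237 ± 39.6 and 281 ± 65.5 CPM in the same order of groups. Of 4 skeletal muscle markers, Ckm, Myh1 and Tnnt3 had group means under 1 CPM in all groups, and Myh1 was at 0 in every crush control sample. Ckm was at 0.288 ± 0.352, 0.0498 ± 0.0195, 0.0445 ± 0.0890 and 0.0535 ± 0.0657 CPM, highest in uninjured controls. Acta1 made up most of their sum, which was 3.43 to 6.06 CPM in uninjured control, 2.64 to 5.57 in uninjured cKO, 3.01 to 13.0 in crush control and 3.33 to 13.5 CPM in crush cKO samples. Macrophage markers summed over 7 genes to 2.68 to 8.21 CPM in uninjured control, 8.64 to 23.6 in uninjured cKO, 9.98 to 56.1 in crush control and 15.9 to 35.2 CPM in crush cKO samples, and their part in the Cox6a2 values was not tested. Cox6b2, a form known from testis, rose with deletion in uninjured neurons by 1.66 ± 0.53 (adjusted p = 0.0345, edgeR), from 0.912 ± 0.591 to 2.88 ± 1.29 CPM, although the groups overlapped, the highest control, at 1.74 CPM, lying above the lowest cKO sample. That call was lost in 7 of 23 alternatives, namely the replicate block, no filter on low counts, and without uninjured control replicate 1, 2 or 4 or uninjured cKO replicate 3 or 4. Cox6b2 stood at 0.850 ± 0.406 in crush control and 2.81 ± 0.496 in crush cKO samples.

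Cox4i2, a form of subunit 4 known from lung, was at 2.09, 8.09, 3.65 and 4.46 CPM in uninjured control and 0.730, 0.823, 2.16 and 0.0890 CPM in crush control samples, which overlapped. Its change was -2.26, the lowest of complex IV, and did not pass in the main edgeR fit. DESeq2, limma-voom and limma on aliquot means called it lower. So did edgeR with the satellite glia covariate, and without crush control replicate 3 or crush Tsc2 cKO replicate 4. In cKO samples Cox4i2 was at 3.85 ± 1.96 before and 0.543 ± 0.383 CPM after crush, with no overlap (-2.81 ± 0.89, adjusted p = 0.0847, edgeR). Vascular and fibroblast markers summed over 7 genes to 54.9 to 238 CPM in uninjured control and 22.0 to 76.0 in crush control samples, and to 107 to 202 and 59.9 to 335 CPM in uninjured and crush cKO samples. Their part in the Cox4i2 values was not tested. Cox7a1 was at 6.50 ± 2.50, 5.27 ± 1.46, 3.45 ± 2.28 and 4.90 ± 1.92 CPM in the 4 groups, and no comparison passed. Cox7b2 stayed below 1.10 CPM in all samples. Ndufa4l2, Cox8b and Cox8c had too few counts to be tested.

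**Figure D4:**
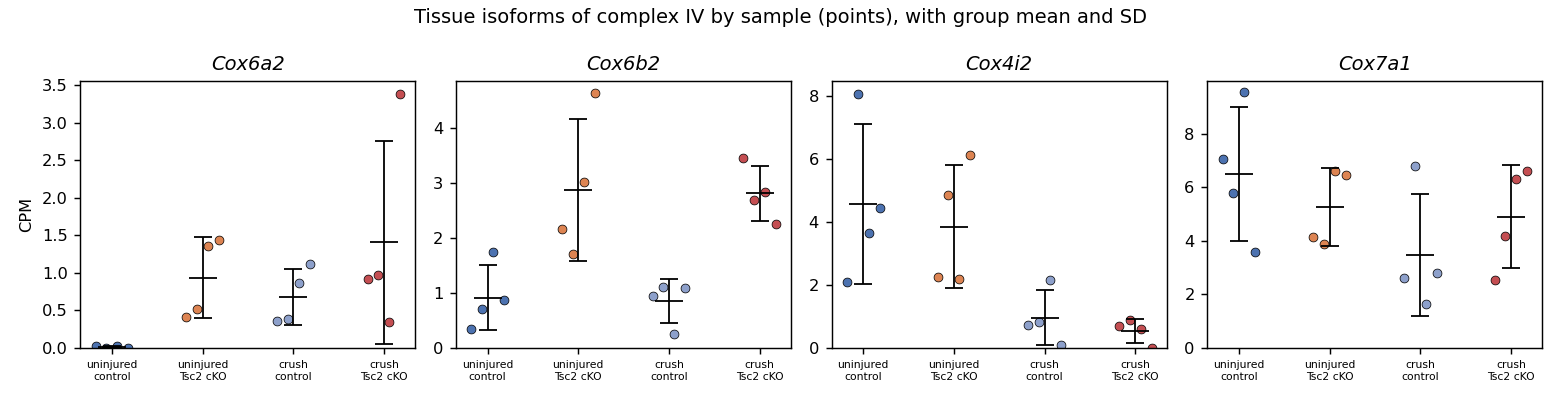
CPM of 4 tissue isoforms of complex IV in each of 16 samples (points), with the group mean and SD (bars), all axes starting at 0. Cox6a2 was near 0 in the 4 uninjured control samples and between 0.346 and 3.39 CPM in the other 12.

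Genes that act with the complexes were read from lists in the same fits. With deletion in uninjured neurons 3 of 6 complex III assembly factors fell, where 9.02% of all genes did, among them Uqcc3, which stabilises cytochrome b, at -0.67 ± 0.09, and Uqcc1, at -0.48 ± 0.11, and none rose. For complex IV, 2 of 18 tested fell, a share near that of all genes, and none rose, with Cox17, a copper chaperone, at -0.83 ± 0.20 and Surf1 at -0.37 ± 0.09. Complex I factors gave 1 rise, Ndufaf4 (0.39 ± 0.13), and 1 fall, Ndufaf3 (-0.52 ± 0.10), among 15. After crush in controls, 3 of 15, 2 of 6 and 4 of 18 factors of complexes I, III and IV fell, against 8.68% of all genes, with Ndufaf3 at -0.67 ± 0.10 and Cox17 at -0.85 ± 0.20, and none of these rose. Of genes with a mean of at least 100 CPM 22.4% fell, and the shares for complexes I and IV were not above that. Some factors lie below that level, such as Cox17, at 31.2 CPM in uninjured controls. Of 4 complex II factors 1 rose and 1 fell after crush in controls. None of 4 complex V factors was called by edgeR in any comparison.

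Of the subunits encoded by mitochondrial DNA, 7 of 13 were tested. With deletion 4 of 7 rose in uninjured neurons, with mt-Co1, the catalytic subunit of complex IV, from 2886 to 4234 CPM (0.55 ± 0.14, adjusted p = 0.0102, edgeR), and 6 of 7 rose after crush. The median change was 0.43 and 0.53. Of all genes, 11.7% rose with deletion in uninjured neurons and 3.38% after crush. After crush in controls 2 of 7 fell, mt-Nd1 and mt-Nd2, both of complex I, at -0.40 ± 0.12 and -0.40 ± 0.12. In the citric acid cycle, 5 of 13 genes fell with crush in controls, where 8.68% of all genes fell, such as Mdh2, malate dehydrogenase, at -0.37 ± 0.10. Deletion raised 2 of 13 in uninjured neurons, a share near that of all genes, namely Ogdh and Idh3a, and lowered Dld, and raised 3 of 13 after crush, the subunits Idh3a, Idh3b and Idh3g of isocitrate dehydrogenase. Slc25a3, which carries phosphate into mitochondria, was at 141 CPM in uninjured control, 320 in uninjured cKO, 242 in crush control and 344 in crush cKO samples. Slc25a3 rose with deletion in uninjured neurons by 1.19 ± 0.14, after crush by 0.51 ± 0.14 and with crush in controls by 0.78 ± 0.14. Slc25a4, an ADP/ATP carrier, fell with crush in controls by 0.41 ± 0.09, and Slc25a5 by 0.57 ± 0.14. In this list of 7 carrier genes, 1 rose and 2 fell with crush in controls, against 11.0% and 8.68% of all genes. Deletion raised 1 in uninjured neurons, against 11.7%, and 3 after crush, against 3.38%. The latter included Slc25a5 (0.51 ± 0.14) and Vdac2 (0.38 ± 0.09).

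Among 12 nuclear regulators of mitochondrial genes, Ppargc1b, the coactivator PGC-1 beta, rose from 2.36 to 18.0 CPM with deletion in uninjured neurons (2.93 ± 0.37, adjusted p = 4.3e-05, edgeR) and from 2.84 to 13.7 CPM after crush (2.27 ± 0.36, adjusted p = 0.00134). Tfb1m, a mitochondrial ribosomal RNA methyltransferase, fell in both, by 0.59 ± 0.15 and 0.61 ± 0.15. Crush in controls raised Yy1 (0.70 ± 0.18) and Polrmt, the mitochondrial RNA polymerase (0.69 ± 0.23), and lowered Tfb1m (-0.46 ± 0.15). The other regulators of the 12 were not called in these comparisons. With crush in controls 2 of 12 rose and 1 fell, against 11.0% and 8.68% of all genes. With deletion in uninjured neurons 1 rose and 1 fell, against 11.7% and 9.02%, so these shares were near those of all genes. After crush, deletion also gave 1 rise and 1 fall, against 3.38% and 3.21%. In the list of cytochrome c and coenzyme Q synthesis, Coq8a fell with deletion by 1.73 ± 0.24 in uninjured and 1.71 ± 0.25 in crushed neurons. Its paralogue Coq8b rose in uninjured neurons by 1.32 ± 0.23, from 5.38 to 13.4 CPM, and with crush in controls by 1.51 ± 0.23. Both encode kinase-like proteins that act in coenzyme Q synthesis. Of the 14 genes of this list tested, 3 fell and 1 rose with crush in controls, against 8.68% and 11.0% of all genes. Coq10a then fell by 0.615 ± 0.124 and Coq3 by 0.491 ± 0.114. With deletion in uninjured neurons 2 rose and 2 fell, with Coq3 at -0.396 ± 0.113, against 11.7% and 9.02% of all genes.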

How the data were processed

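For each of 48 libraries the authors deposited raw counts per Ensembl gene. The submitters' processing notes name STAR, HTSeq, FastQC, DESeq2 and the mm10 build; tool versions are not given in these sources. Per the labels' protocols, libraries came from a SMARTer Ultra Low RNA kit, which does not mark strand, and were read as single 50-base reads without molecular identifiers. HTSeq summary lines (reads with several alignments 37.49 to 46.12%, outside genes 5.921 to 19.37%, ambiguous 1.915 to 2.576%) stayed out. Libraries held 5159353 to 34228180 counts.

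Aliquots were summed, and sums tested with edgeR 4.0.16 in R 4.3.3 (TMM, filterByExpr, quasi-likelihood test, 1 mean per group, two-sided, Benjamini-Hochberg over 19048 genes). CPM uses TMM-scaled totals. Standard errors are the log2 change divided by the square root of F. Alternatives used DESeq2 1.42.0 and limma 3.58.1. Per-length levels divide by the median length of APPRIS principal transcripts, and symbols and coordinates are from GENCODE M21 (47224 identifiers matched). Of the 10 pseudogenes left out, 6 carry -ps in their symbol and 4 are annotated as processed pseudogenes. The fit was tested on simulated data. Same-numbered cKO sides deviated together, with correlations of 0.138 to 0.309, each above that with any other number. This does not show that a number marks 1 mouse. The other pairs of groups did not meet that rule at every number. On the control sides correlations were 0.009 to 0.303, and numbers 1 and 3, at 0.189 and 0.303, met it.

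Named members were those called with the smallest p (up to 5 per complex, comparison and direction), catalytic subunits, isoform families and the 2 most abundant of each complex, and up to 3 genes per further list. Members, lists and motifs were chosen with earlier results of these data known. The authors' deposited comparison table was not used. The values of 1 member that this rule names are not reported here.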

Additional observations from a re-analysis of the deposited data

Results flagged for a closer look

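In 13 of 228 groups of 4 samples checked (5.70%), 1 sample stood far from the other 3, where chance flags about 1 group in 20. Uninjured control replicate 1 was the low sample for Atp5b (576 CPM against 659 to 672), Cox4i1 (696 against 716 to 720) and Ndufa11 (370 against 406 to 410). Uninjured control replicate 4 was high for Ndufs1 (258 against 184 to 189 CPM) and low for Cox6c (221 against 230 to 232). Crush control replicate 1 was low for Atp5j (165 against 220 to 226 CPM) and Atp5k (169 against 196 to 197), and replicate 4 for Atp5g3 (250 against 268 to 269). Crush control replicate 2 was high for Ndufs1 (173 against 147 to 151 CPM), Ndufs7 (263 against 232 to 236) and Sdha (344 against 278 to 288). Crush Tsc2 cKO replicate 3 was high for Atp5g3 (460 against 352 to 356 CPM) and Cox7b2 (1.09 against 0 to 0.0833).

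The effect of crush on Cox6a2 differed between the genotypes by the interaction, which was -5.29 ± 1.21 on the log2 scale (adjusted p = 0.0355, edgeR). The uninjured control samples held 2 counts of it in all. The call was lost in 13 of 23 alternatives, with adjusted p from 0.0051 to 0.426. These were the replicate block, limma-voom, limma on aliquot means and leaving out uninjured control replicate 1, 2 or 4, uninjured Tsc2 cKO replicate 3 or 4, crush control replicate 3 or 4, or crush Tsc2 cKO replicate 1, 2 or 3.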

How the results depend on the processing

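Members called for crush in control were 33; 15 were past a threshold of 0.01, and 20 were called among the 55 members with under 10% shared windows, a set chosen after seeing the data. For crush in Tsc2 cKO the count was 0, with 2 by limma-voom, 1 by limma on aliquot means and 3 by DESeq2. For deletion in uninjured neurons it was 20, and 9 at 0.01. For deletion after crush it was 17, with 1 under the satellite glia covariate, 4 at 0.01 and 11 among members with few shared windows. For the interaction it was 1, with 0 by limma-voom, by limma on aliquot means and at 0.01, and 2 by DESeq2 (Cox6a2 and Ndufs3). In all other settings apart from those below, the counts stayed within 1.5 times.

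With the replicate block, 1 member was called for crush in Tsc2 cKO and 0 for the interaction. The block gave 42 for crush in control, 21 for deletion in uninjured neurons and 20 for deletion after crush. For both deletion comparisons the block was the number over all 4 groups, which ties different mice of the genotypes. Same-numbered samples of the genotypes had correlations of -0.046 to 0.037 in uninjured and -0.056 to 0.196 in crush groups. Same-numbered samples deviated together at every number for the cKO sides only. The blocks for crush in control and the interaction also used the numbers of the control sides.

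Leaving out 1 sample gave 18 to 39 calls for crush in control (18 without crush control replicate 4, 19 without replicate 1), 0 to 5 for crush in Tsc2 cKO and 12 to 22 for deletion in uninjured neurons. The latter was 12 without uninjured control replicate 1 or 2 or uninjured Tsc2 cKO replicate 4, and 13 without cKO replicate 3. It gave 8 to 28 for deletion after crush and 0 to 2 for the interaction. Of 1472 repeats of called changes of named members, 1202 stayed called, 270 lost the call and none changed sign; the cause was not tested. Depth limits the sparse isoforms, where 3 counts over a group come to 0.0133 to 0.0159 CPM. Leaving out the most abundant member of each complex lowered the sums, with complex I then at 8345, 8355, 6394 and 7508 CPM in the order of the report. For complex II, leaving out Sdhb turned the difference between uninjured Tsc2 cKO and uninjured control samples from 1681 against 1563 to 948 against 960 CPM.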
